A study of Danio rerio with 73 samples.

Results

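The libraries described here are 20 mature testes of zebrafish reared at 36 °C, taken from the 73 gonads of the series. They were defined by their labels, as tissue testis, treatment HT and a title that ends in MHT, with earlier results of these data known. They divide by the first number of the title into 12 fish with prefix 128 and 8 fish with prefix 204. All 20 fish belonged to the AB strain, were kept in a laboratory facility and were 90 days old. The treatment HT was read as 36 °C from the series design, which names 28 °C and 36 °C as the temperatures during gonad development. The labels do not define the prefix, and they do not say whether fish of 1 prefix shared a tank, a family or a preparation, so the p-values below measure the spread between these fish. The question was whether testes that shared strain, age and rearing temperature also shared the level of methylation and its spread between fish.

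Cytosine methylation in vertebrates sits mainly at CpGs, where a cytosine is followed by a guanine. CpG-rich promoters are usually unmethylated, while most other CpGs are methylated, and the sperm of zebrafish is known for its high methylation. Bisulfite converts cytosine without the methyl group, which then reads as T, and spares cytosine that carries it. The methylation level of a CpG is the share of its reads that still show C. Each library mixes all cell types of a testis, so a change in the share of a cell type and a change within cells cannot be told apart.

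In each fish the targets were amplified by multiplex PCR and sequenced, per the labels. At least 10 reads were asked of each CpG and fish, and 323 CpGs fell into 20 amplicons on the GRCz10 build. No gene names were assigned, and amplicons are named by chromosome, with a letter by position where a chromosome holds several. The fish had 2536835 to 10172927 CpG calls with prefix 128 and 3681330 to 12565602 with prefix 204. Log10 depth differed by -0.0915 (SE 0.0894, exact permutation p = 0.309, two-sided). The shallowest libraries were fish 19 of prefix 128, with a median of 1169 reads per CpG, and fish 17 of prefix 204, with 939. The labels mention no molecule tags, so errors were taken between fish and not from reads.

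Several libraries stood apart and are named before the results. Fish 1 and 17 of prefix 204 had levels unlike the other testes reared at 36 °C. There were 10 amplicons at which the testes of prefix 128 and the ovaries of prefix 204, also reared at 36 °C, did not overlap. At these, fish 1 lay within the ovary range at 6 of 9 amplicons with a level and fish 17 at 7 of 9. Both lay within the range of the prefix 128 testes at 0. Both were also set against the testes of prefix 204 reared at the lower temperature, after their values were seen. Those ranged from 25.1% to 49.1% at amplicon 18, 10.5% to 38.3% at 7b and 25.7% to 59.5% at 3a. Fish 1 lay within their range at each of these amplicons with a level. Fish 17 did so at all but amplicon 8, where its 92.6% exceeded their highest, 91.3%. What set the 2 fish apart was not tested. Among the other 6 fish of prefix 204, which the choice of amplicons did not use, fish 8 lay within the ovary range at 1 amplicon and the other 5 at 0. For the fish of prefix 128 that choice fixes the count. The mean absolute difference over CpGs was 3.36 points between fish 1 and 17, and 10.1 to 13.3 points from them to the other 6 fish of their prefix. Each comparison is given with and without these 2 fish, a choice made with earlier results of these data known. Fish 11 of prefix 204 was high at amplicons of low methylation, and fish 19 of prefix 128 departed from its prefix at 2 CpGs of chromosome 3, as described below.

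The targets covered nearly the whole scale of methylation. Over all fish of the series, 8 of the 20 amplicons averaged below 5% (low), 3 above 90% (high) and 9 lay between (intermediate). The 18 amplicons with a level in at least 5 fish of both prefixes were tested. At amplicon 25 (chr25:22224443-22224607), 0 of 12 fish with prefix 128 and 7 of 8 with prefix 204 had a level. The median depth there was 0 reads per CpG in each fish of prefix 128 and 7 to 672.5 reads in those of prefix 204. Amplicon 22 (chr22:20736688-20736788) had a level in 6 fish of prefix 128 and 4 of prefix 204.

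**Figure D1:**
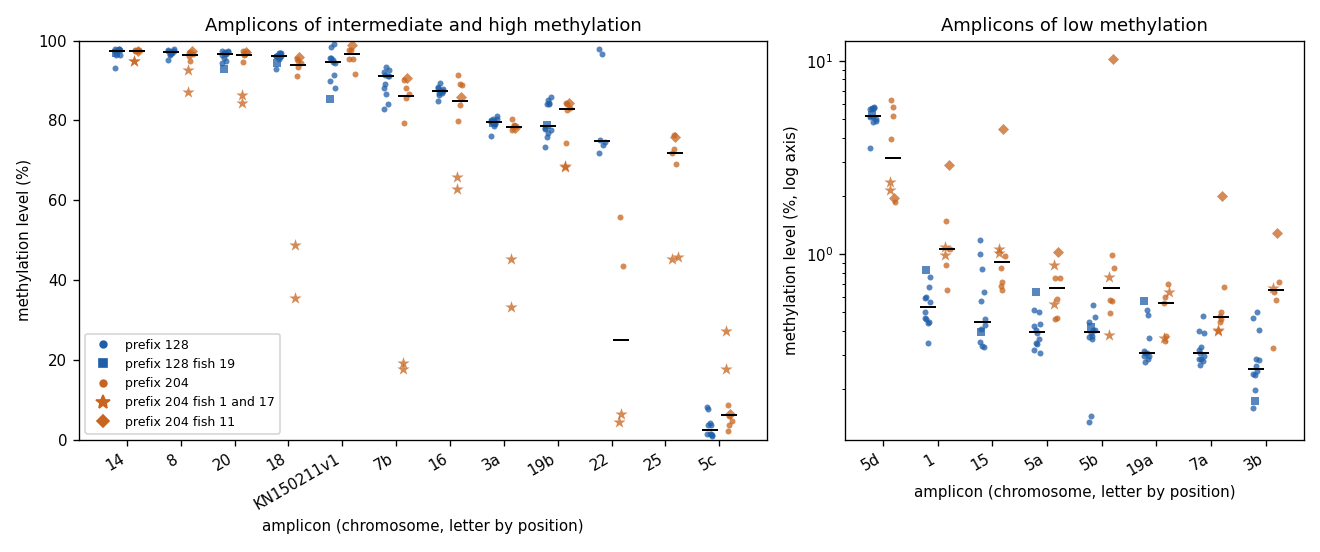
Methylation level of each amplicon in each fish, in percent, with prefix 128 in blue left of prefix 204 in orange. The right panel has a log axis. Black bars are medians, the stars are fish 1 and 17 of prefix 204, the diamond is fish 11 of prefix 204 and the square is fish 19 of prefix 128. The stars lie far from the other fish at amplicons 18, 7b, 16 and 3a, and the diamond is the highest at 5b with 10.2%.

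With all 20 fish, methylation differed between the prefixes at 13 of 18 amplicons, 72.2% of those tested. Of these, 5 were higher (27.8%) and 8 lower (44.4%) with prefix 128 (exact permutation test over fish, two-sided, Benjamini-Hochberg adjusted at 0.05). Without fish 1 and 17 of prefix 204, 5 of 18 differed, or 27.8%, with 0 higher and 5 lower. The count was 8 without fish 1 alone and 7 without fish 17 alone. It remained 13 without fish 19 of prefix 128, again with 5 higher and 8 lower. On the logit scale, 11 amplicons differed, 3 higher and 8 lower. The same test of ranks gave 10 amplicons, 2 of them higher with prefix 128. By limma 3 amplicons differed, 0 of them higher, and by a quasi-binomial model 3, 1 of them higher. The exact test of means also responds to unequal spread, and the spread of these groups was unequal, as given below.

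The larger differences lay at amplicons of intermediate methylation. The testes of prefix 128 were high at 18, 7b, 16 and 3a among these, and low at 5c. At amplicon 18 (chr18:39655137-39655521, 15 CpGs) the lowest, median and highest level was 92.9%, 96.0% and 97.0% with prefix 128, and 35.5%, 94.0% and 95.9% with prefix 204. Only fish 1 (35.5%) and fish 17 (48.7%) of prefix 204 lay below 90%, and the ranges of the groups overlapped. The means were 95.8% ± 1.14 (SD, n = 12) with prefix 128 and 81.2% ± 24.4 (SD, n = 8) with prefix 204. The difference of 14.6 points (SE 8.64) passed the test (exact permutation, adjusted p = 0.00936). Leaving out these 2 fish, the mean with prefix 204 was 94.2% ± 1.70 (SD, n = 6), a difference of 1.59 points (SE 0.770, adjusted p = 0.0715 by the same exact test). With single fish left out the call held in 20 of 20 repeats, and the difference was 8.08 points without fish 1.

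Amplicon 7b (chr7:34854540-34854908, 9 CpGs) had the largest difference in mean of the 18 tested. Its level was 82.9%, 91.1% and 93.5% (lowest, median, highest) with prefix 128 and 17.7%, 86.1% and 90.6% with prefix 204. Fish 1 at 17.7% and fish 17 at 19.1% were the low ones, the next being fish 18 at 79.5%. The means were 89.3% ± 3.54 (SD, n = 11) with prefix 128 and 69.7% ± 31.8 (SD, n = 8) with prefix 204, which differed by 19.7 points (SE 11.3, exact permutation, adjusted p = 0.0309). Without the 2 fish the difference was 2.58 points (SE 1.98, exact permutation, adjusted p = 0.290). The call was also lost without any 1 of fish 1, 17 and 18 of prefix 204, with adjusted p up to 0.0779 (exact permutation), and the difference was 12.2 points without fish 1.

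Amplicon 16 (chr16:54645605-54645858, 19 CpGs) did not pass the test of level and passed that of spread. The level was 84.9%, 87.4% and 89.4% (lowest, median, highest) with prefix 128 and 62.9%, 85.0% and 91.5% with prefix 204. The highest fish of prefix 204, fish 2, lay above every fish of prefix 128, and fish 1, 17, 18 and 8 lay below every one of them. The means were 87.4% ± 1.17 (SD, n = 11) with prefix 128 and 81.0% ± 10.9 (SD, n = 8) with prefix 204 (exact permutation, adjusted p = 0.0637 for level). With fish 1 and 17 left out, the level with prefix 204 was 86.5% ± 4.21 (SD, n = 6). The difference in level of 6.38 points passed without any 1 of fish 2, 13 and 19 of prefix 204, and was 3.80 points without fish 17.

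Amplicon 5c (chr5:44344567-44344999, 24 CpGs) ran the other way. Its level was 0.974%, 2.56% and 8.13% (lowest, median, highest) with prefix 128, and 2.18%, 6.16% and 27.3% with prefix 204. Fish 17 (27.3%) and fish 1 (17.7%) were again the extreme ones, this time high. The means were 3.37% ± 2.68 (SD, n = 10) with prefix 128 and 9.59% ± 8.61 (SD, n = 8) with prefix 204, a difference of -6.21 points (SE 3.16, exact permutation, adjusted p = 0.0309). Without these 2 fish the difference was -1.90 points (SE 1.27, adjusted p = 0.284 by the same exact test). The call was lost in 8 of 20 repeats with 1 fish left out, with adjusted p up to 0.0820 (exact permutation). These were fish 1, 4, 5, 6 and 15 of prefix 128 and fish 1, 17 and 18 of prefix 204, and the difference was -3.68 points without fish 17.

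Smaller differences were measured at the amplicons of high methylation. Amplicon 8 (chr8:29856084-29856417, 4 CpGs) was 2.16 points higher with prefix 128 (SE 1.26, exact permutation, adjusted p = 0.0309), and 0.489 points higher without fish 1 and 17 (adjusted p = 0.322). This call was lost in 8 of 20 repeats with 1 fish left out, namely fish 1, 4, 5, 6 and 15 of prefix 128 and fish 1, 8 and 17 of prefix 204. The adjusted p there reached 0.0935 (exact permutation), and the difference was 1.06 points without fish 1 of prefix 204. Amplicons 14 (chr14:23501841-23502150), 20 (chr20:1252974-1253280) and 19b (chr19:27434975-27435361) and the one at 6205 to 6328 on the unplaced scaffold KN150211v1 did not pass. Their differences ranged from -2.77 to 2.38 points with all fish. On the unplaced scaffold neither fish 1 nor fish 17 had a level.

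At the 8 amplicons of low methylation, 7 were lower with prefix 128 and all 8 passed with all 20 fish. Once fish 1 and 17 were left out, 5 of these passed, each lower with prefix 128. Those 5 were amplicons 1 (chr1:6886521-6886862), 3b (chr3:54352466-54352868), 5a (chr5:23697173-23697500), 5b (chr5:34961306-34961660) and 7a (chr7:22538693-22539035). Their calls also held when any 1 of the 20 fish was left out, with adjusted p up to 0.0055 (exact permutation). Amplicons 15 (chr15:7060346-7060685) and 19a (chr19:1356464-1356767) passed with all fish and not without the 2, with adjusted p of 0.0715 and 0.0768 (exact permutation). Amplicon 15 also lost its call without fish 11 of prefix 204 alone, with -0.273 points against -0.719 points with all fish. Amplicon 19a lost it in 11 of 20 repeats with 1 fish left out, namely fish 1, 2, 4, 5, 6, 12 and 13 of prefix 128 and fish 13, 17, 18 and 19 of prefix 204. Its adjusted p there reached 0.0913 (exact permutation).

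Amplicon 5b (34 CpGs) had 0.135%, 0.394% and 0.544% (lowest, median, highest) with prefix 128, against 0.380%, 0.668% and 10.2% with prefix 204. Fish 11 of prefix 204 stood at 10.2%, and the other 7 fish of that prefix did not exceed 0.987%. The means were 0.371% ± 0.119 (SD, n = 12) with prefix 128 and 1.86% ± 3.39 (SD, n = 8) with prefix 204 (difference -1.48 points, SE 1.2, exact permutation, adjusted p = 0.00143). Without fish 11 the difference was -0.287 points and still passed. In fish 11, the 34 CpGs of this amplicon ranged from 8.79% to 12.7%, while the highest CpG of the other 19 fish was 2.16%.

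The other low amplicons, apart from 5d described below, differed by fractions of a point. Amplicon 1 averaged 0.555% ± 0.142 (SD, n = 12) with prefix 128 and 1.29% ± 0.746 (SD, n = 7) with prefix 204 (exact permutation, adjusted p = 0.00143). Amplicon 3b averaged 0.287% ± 0.11 (SD, n = 12) with prefix 128 and 0.699% ± 0.315 (SD, n = 6) with prefix 204 (exact permutation, adjusted p = 0.00145). At 7a the levels were 0.330% ± 0.0649 (SD, n = 11) with prefix 128 and 0.670% ± 0.545 (SD, n = 8) with prefix 204, and at 5a they were 0.413% ± 0.0960 (SD, n = 12) with prefix 128 and 0.682% ± 0.203 (SD, n = 8) with prefix 204. The differences were -0.735 points at 1 and -0.340 points at 7a, and without fish 11 of prefix 204 they were -0.469 and -0.150 points. The ranges of the groups overlapped at each of the 8 low amplicons. Cytosine that bisulfite leaves unconverted adds to such levels, and its part in the differences was not tested.

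The 104 CpGs of low amplicons with a level in all 20 fish lay in amplicons 15 (26 CpGs), 5a (26), 5b (34) and 5d (18). Over these, the mean per fish was 0.353% to 0.889% with prefix 128 and 0.611% to 5.04% with prefix 204. It averaged 0.583% ± 0.166 (SD, n = 12) with prefix 128 and 1.42% ± 1.47 (SD, n = 8) with prefix 204 (exact permutation p = 0.000429, two-sided). Fish 11 was the highest, at 5.04%, and without it prefix 204 averaged 0.905% ± 0.185 (SD, n = 7, exact permutation p = 0.00163). Fish 11 was not raised evenly, with 10.2% at 5b, 4.42% at 15 and 1.03% at 5a. At amplicons 1 and 7a, which are outside this set, it had 2.88% and 2.0%. At 5d, with 1.94%, it was not the highest of its prefix.

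**Figure D2:**
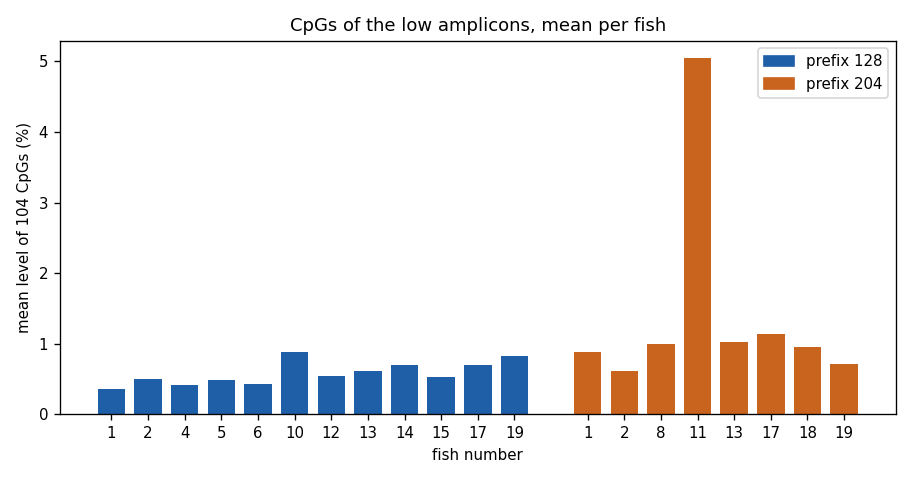
Mean methylation level, in percent, of the 104 CpGs of low amplicons with a level in all 20 fish, 1 bar per fish, with prefix 128 on the left. Fish 11 of prefix 204 reaches 5.04%, and the other 19 fish lie between 0.353% and 1.14%.

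Amplicon 5d (chr5:44400346-44400733, 19 CpGs) was the one low amplicon that was higher with prefix 128, and this rested on a single CpG. Its level averaged 5.17% ± 0.614 (SD, n = 12) with prefix 128 and 3.68% ± 1.84 (SD, n = 8) with prefix 204 (exact permutation, adjusted p = 0.0309). The last CpG, at position 44400733, was methylated at 52.6% to 90.0% with prefix 128 and 57.9% to 83.3% with prefix 204. It reached 10 reads in 12 of 12 fish of prefix 128 and 4 of 8 of prefix 204, so that it entered the mean of fewer fish there. In prefix 204 the amplicon stood at 3.95% to 6.26% in fish with this CpG and at 1.86% to 2.35% in fish without it. Over the other 18 CpGs, which all 20 fish shared, the direction was opposite, with 1.23% ± 0.591 (SD, n = 12) for prefix 128 and 1.85% ± 0.449 (SD, n = 8) for prefix 204. That difference of -0.619 points (SE 0.233) also passed (exact permutation, adjusted p = 0.0362). Over all 19 CpGs the call was lost in 5 of 20 repeats with 1 fish left out, namely fish 5 of prefix 128 and fish 1, 11, 13 and 17 of prefix 204.

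At single CpGs, 109 of 310 differed between the prefixes, 35.2% of those tested, with 38 higher and 71 lower in prefix 128. When fish 1 and 17 of prefix 204 were left out, 75 of 308 differed (24.4%), 12 higher (3.9%) and 63 lower (20.5%), and 12 of the higher and 51 of the lower CpGs were called in both. By rank the count was 40, by the quasi-binomial model 33 and by limma 2. The low amplicons held 61 of the 71 lower CpGs and 0 of the higher ones, out of 199 tested, against shares of 22.9% lower and 12.3% higher over all CpGs. With those fish left out they also held 61 lower CpGs, of which 49 were shared. The intermediate amplicons held 37 higher and 10 lower CpGs of 87 tested with all fish, and 12 higher and 2 lower without the 2 fish. Amplicon 5b held 24 lower CpGs of its 34, both with and without them, 22 of them shared.

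The CpGs with the largest differences lay in amplicon 3a (chr3:17897376-17897597, 6 CpGs). As a whole this amplicon stood at 76.0%, 79.6% and 81.2% (lowest, median, highest) with prefix 128 and 33.3%, 78.3% and 80.4% with prefix 204. Its mean was 79.4% ± 1.29 (SD, n = 12) with prefix 128 and 68.8% ± 18.6 (SD, n = 8) with prefix 204 (exact permutation, adjusted p = 0.0309). Fish 1 (33.3%) and 17 (45.2%) were the low ones, and without them prefix 204 averaged 78.7% ± 0.985 (SD, n = 6, adjusted p = 0.322). The call was also lost without any 1 of fish 1, 17 and 18 of prefix 204, and the difference of 10.6 points was 5.52 points without fish 1. Within the amplicon, however, 2 CpGs differed widely and in opposite directions, so that they nearly cancelled in its mean.

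The CpG at position 17897380 was methylated at 46.3%, 96.4% and 97.6% (lowest, median, highest) with prefix 128 and at 9.13%, 17.9% and 47.5% with prefix 204. In prefix 128 it exceeded 93% in 11 of 12 fish, and fish 19, at 46.3%, was the low one. The difference was 66.0 points (SE 7.17, exact permutation, adjusted p = 0.00164), and 60.8 points (SE 7.68, adjusted p = 0.00664) without fish 1 and 17 of prefix 204. The CpG at position 17897597, 221 bp from the first CpG of the amplicon, was the opposite. It stood at 0%, 0.187% and 48.7% (lowest, median, highest) with prefix 128 and at 39.1%, 54.5% and 80.6% with prefix 204. Here too fish 19 was the exception in prefix 128, and the other 11 fish did not exceed 0.681%. The difference was -56.9 points (SE 7.07, exact permutation, adjusted p = 0.00164), and -61.3 points (SE 7.66, adjusted p = 0.00415) without fish 1 and 17 of prefix 204. These were the 2 CpGs that limma also called. Leaving out fish 19 of prefix 128 gave 70.2 points (SE 5.83) at the first and -61.0 points (SE 5.81) at the second, and the groups then did not overlap at either (exact permutation, adjusted p = 0.00137 for both).

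At this pair of CpGs, 6 of the 8 fish of prefix 204 lay at 2 separate levels. Fish 2, 18 and 19 had 43.8% to 47.5% at the first and 50.3% to 51.7% at the second. Fish 8, 11 and 13 had 15.2% to 18.4% at the first and 79.8% to 80.6% at the second. Fish 1, with 9.13% and 39.1%, and fish 17, with 11.9% and 57.3%, belonged to neither of these sets. Fish 19 of prefix 128, with 46.3% and 48.7%, lay close to fish 2, 18 and 19 of prefix 204 and far from its own prefix. At the 4 other CpGs of the amplicon the medians were 94.8% to 95.7% with prefix 128 and 91.9% to 94.2% with prefix 204.

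**Figure D3:**
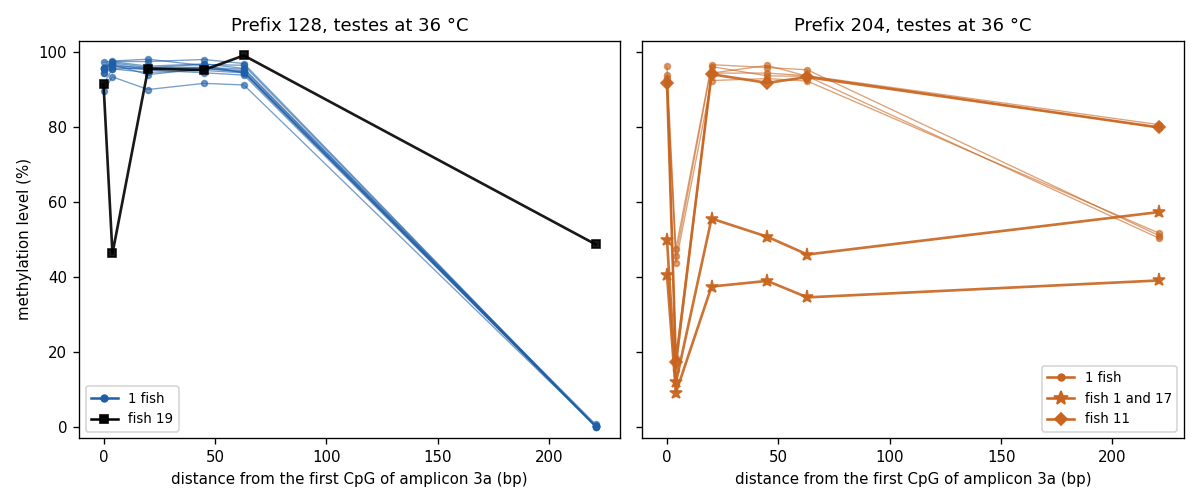
Methylation level in percent along amplicon 3a, 1 line per fish, against the distance in bp from its first CpG, with prefix 128 on the left and prefix 204 on the right. The CpG at 4 bp is above 93% and the CpG at 221 bp is below 1% in all fish of prefix 128 except fish 19 (black). In prefix 204 both are partly methylated.

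To set a single CpG against its surroundings, the level was also taken relative to the mean of the other CpGs of the amplicon in the same fish. A difference between the prefixes at those other CpGs also enters this measure. On that measure, 53 of 308 CpGs differed between the prefixes (17.2%), 28 higher (9.09%) and 25 lower (8.12%) in prefix 128. The count was 13 (4.22%) without fish 1 and 17 of prefix 204, 10 higher (3.25%) and 3 lower (0.974%). Leaving out fish 19 of prefix 128 gave 58, with 30 higher (9.74%) and 28 lower (9.09%). Of the 53 calls with all fish, 13 lay in amplicon 5d, where 18 CpGs were tested. The CpG at 44400733 entered the subtracted mean there in 12 of 12 fish of prefix 128 and 4 of 8 of prefix 204. With a minimum of 30 reads, 31 CpGs passed, 24 of them higher in prefix 128. Differences of at least 30 points past the test numbered 3, namely the pair on chromosome 3 and position 54645721 on chromosome 16. The pair differed by 66.5 points (SE 8.4) and -81.1 points (SE 8.76) with exact permutation adjusted p of 0.00163 and 0.00136. The level at 54645721 was 0.153%, 17.9% and 32.7% (lowest, median, highest) with prefix 128 and 22.5%, 36.2% and 90.8% with prefix 204. Fish 2 (90.8%) and 19 (85.1%) were the high ones in prefix 204, and in prefix 128 5 of 11 fish lay below 2% and 6 at 17.9% to 32.7%. Relative to its amplicon it differed by -40.4 points (SE 8.96, exact permutation, adjusted p = 0.00163).

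The same pair of CpGs separated the prefixes in fish that were not part of this comparison. Relative to the amplicon, position 17897380 differed by 49.9 points (SE 5.46) in testes reared at 28 °C and by 40 points (SE 2.11) in ovaries reared at 28 °C. Position 17897597 differed by -87.2 points (SE 7.12) in those testes and by -44.3 points (SE 5.82) in those ovaries. The groups did not overlap in any of these 4 comparisons (exact permutation, adjusted p = 9.29e-05 for both in testes and 0.00302 for both in ovaries). On this measure 23.8% of 319 CpGs passed in 28 °C testes (14.4% higher and 9.4% lower in prefix 128). In 28 °C ovaries 2.04% of 294 passed (1.02% in each direction). Position 54645721 differed by -48.1 points (SE 8.86, exact permutation, adjusted p = 0.000465) in 28 °C testes. Its difference of -16.8 points (SE 9.78) in 28 °C ovaries did not pass (exact permutation, adjusted p = 0.612). These differences include those of the other CpGs of the amplicon. In level, position 17897597 averaged 0.287% (prefix 128) and 39.7% (prefix 204) in 28 °C testes, and 0.261% and 38.9% in those ovaries. Position 17897380 averaged 88.4% and 13.5% in those testes, and 40.3% and 8.74% in those ovaries. Position 54645721 averaged 10.2% and 36.3% in those testes, and 16.3% and 31.2% in those ovaries. Over all tissues and temperatures, position 17897597 was below 5% in 33 of 34 fish with prefix 128, fish 19 being the exception, and in 0 of 38 fish with prefix 204, where it ranged from 21.3% to 80.6%. A T in the fish's own DNA at such a position is read as an unmethylated cytosine, and from these counts the 2 cannot be told apart.

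Other CpGs with large differences were shallow or followed fish 1 and 17. Positions 20736744 and 20736780 on chromosome 22 differed by 49.8 points (SE 17.3) and 55.0 points (SE 18.0), with a level in 6 fish of prefix 128 and 5 of prefix 204. Over all fish, those without a level included, the median was 8.5 reads with prefix 128 and 11.5 reads with prefix 204. At 20736744 the levels were 92.0%, 98.7% and 100% (lowest, median, highest) with prefix 128, and 7.35%, 53.8% and 90.0% with prefix 204. Too few fish of prefix 204 remained for a test there once fish 1 and 17 were left out.

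Of the CpGs with an SD above 10 points in prefix 128, a pair on chromosome 19 had the widest spread, with SDs of 24.3 points in prefix 128 and 17.5 points in prefix 204 at 27435056. At 27435059 the SD was 24.9 points in prefix 128 and 4.44 points in prefix 204. At position 27435056 on chromosome 19, 5 fish had 43.7% to 49.6% (fish 1, 2, 4, 6 and 10), fish 19 had 68.3% and 6 fish had 94.7% to 98.2%. With prefix 204 the level was 47.8% in fish 18, 74.0% and 76.2% in fish 17 and 1, and 93.8% to 96.3% in the other 5. Only 3 bp further, at 27435059, fish 13 and 17 of prefix 128 had 0.483% and 0.570%, fish 4 had 96.5%, and the other 9 had 43.2% to 54.8%. The 8 fish of prefix 204 had 37.9% to 51.6% there. Neither CpG passed the test of level between the prefixes (exact permutation, adjusted p = 0.323 and 0.973).

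The spread between fish was smaller with prefix 128 at most amplicons. The SD over fish was larger in prefix 204 at 16 of 18 amplicons, and at 12 of 18 without fish 1 and 17. Its median over amplicons was 0.940 points with prefix 128 and 2.99 points with prefix 204, or 1.24 points without the 2 fish. Without them, the SD was larger in prefix 204 at 8 of 8 low, 3 of 7 intermediate and 1 of 3 high amplicons. Its median at intermediate amplicons was then 2.68 points with prefix 128 and 2.59 points with prefix 204. At high amplicons it was 1.31 points with prefix 128 and 0.905 points with prefix 204, and at low ones 0.115 and 0.752 points. The values at low amplicons include fish 11 of prefix 204. Over the 104 shared CpGs of low amplicons, the SD without fish 11 was 0.166 points with prefix 128 and 0.185 points with prefix 204. The distances from the group median then did not differ (exact permutation p = 0.891). Over the 18 shared CpGs of amplicon 5d, the SD was 0.591 points with prefix 128 and 0.449 points with prefix 204. Pairs of fish differed by a median of 1.23 points per CpG within prefix 128 (0.644 to 2.52), and by 3.38 points within prefix 204, or 2.24 points (1.0 to 4.23) without the 2 fish.

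In the test of spread, the mean distance of fish from the median of their own group was compared. It was smaller with prefix 128 at 3 of 18 amplicons, 16.7% of those tested, and larger at 0. These were 16, 5d and 5b, and without fish 1 and 17 of prefix 204 the same 3 passed, again 16.7%. At amplicon 16 the mean distance was 0.819 points with prefix 128 and 7.86 points with prefix 204 (exact permutation, adjusted p = 0.00386). Without the 2 fish it was 3.29 points with prefix 204 (exact permutation, adjusted p = 0.0228). At 5b it was 0.0749 points with prefix 128 and 1.35 points with prefix 204 (exact permutation, adjusted p = 0.0480), where fish 11 lay far above the rest, and the call was lost without fish 11, and also when any 1 of 14 other fish was left out. At 5d the wider spread of prefix 204 came with the CpG at 44400733 described above, and over the shared CpGs the call was lost (exact permutation, adjusted p = 0.701). With any 1 of the 20 fish left out, amplicon 16 passed each time. At amplicon 18, whose SD was 21.4 times as large in prefix 204, the test gave an adjusted p of 0.0506 (exact permutation).

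At single CpGs the spread was smaller with prefix 128 at 36 of 310 (11.6%) and larger at 0. Without fish 1 and 17 of prefix 204 it was smaller at 2 of 308 (0.649%), with 56 at an unadjusted p below 0.05. With 1 of the 8 fish of prefix 204 left out, the adjusted count was 16 without fish 19 and 0 or 1 without any other. With all fish, 114 CpGs had an unadjusted p below 0.05. That number was 75 to 83 without fish 1, 11 or 17 of prefix 204, and 104 to 119 without any other of them. The adjusted count was 49 (15.8%) without fish 19 of prefix 128. The largest differences past the test lay in amplicon 18, at positions 39655401, 39655369, 39655364 and 39655510, and at position 54645801 in amplicon 16. At 39655401 the level was 94.8%, 96.6% and 97.4% (lowest, median, highest) with prefix 128 and 31.9%, 94.5% and 96.7% with prefix 204, where fish 1 and 17 (42.4%) were the low ones. None of these 5 CpGs passed the test of spread without the 2 fish, with adjusted p of 0.250 to 0.381 (exact permutation).

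**Figure D4:**
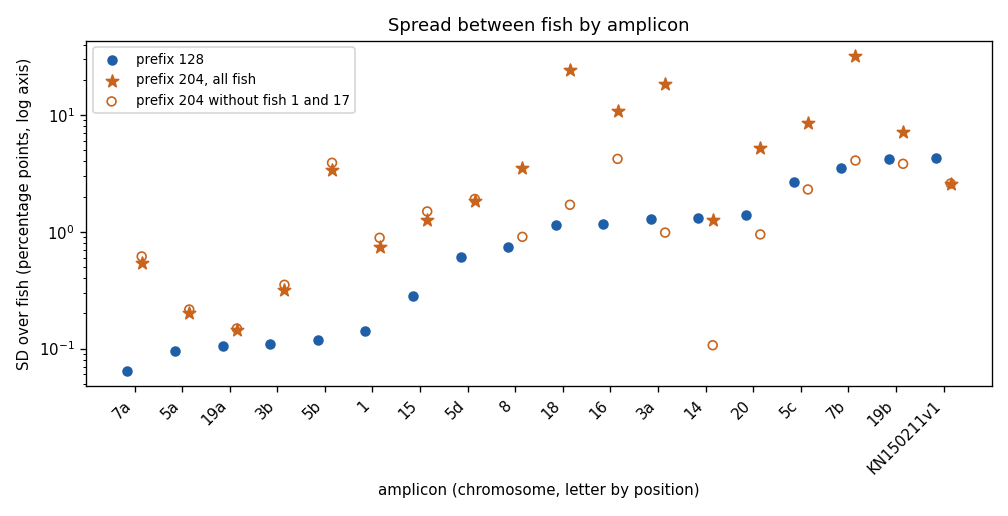
SD of the level over fish in percentage points, on a log axis, for the 18 tested amplicons, ordered by the SD in prefix 128. Filled circles are prefix 128, stars are prefix 204 and open circles are prefix 204 without fish 1 and 17. The stars lie above the circles at 16 of 18 amplicons and the open circles at 12 of 18.

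Averaged over amplicons after each was centred on its mean, the panel level was 3.92 points higher with prefix 128 than with prefix 204 (SE 2.56, exact permutation p = 0.0642, two-sided). It passed without fish 2 of prefix 204 (4.53 points, exact permutation p = 0.0485) and without fish 11 of prefix 204 (4.65 points, p = 0.0306). This average includes amplicons 22 and 25, which were not tested singly. Amplicon 22 had a level in 6 fish of prefix 128 and 4 of prefix 204, at a median of 8 reads. Amplicon 25 had a level only in prefix 204 (7 fish). With a minimum of 30 reads the panel difference was 2.67 points (exact permutation p = 0.153). Fish of prefix 128 ranged from -0.388 to 3.65 points around the common mean, and those of prefix 204 from -14.6 to 3.26. Leaving out fish 1 and 17, the difference was 0.298 points (SE 0.725, exact permutation p = 0.637). The mean distance of fish from their group median was 0.752 points with prefix 128 and 4.50 points with prefix 204 (exact permutation p = 0.0381). That p exceeded 0.05 in 10 of 20 repeats with 1 fish left out. Without the 2 fish the distances were 0.595 points with prefix 128 and 1.19 points with prefix 204 (exact permutation p = 0.161).

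The difference between prefixes was set against that in testes reared at 28 °C, with up to 13 fish of prefix 128 and 10 of prefix 204. It differed between temperatures at 12 of 19 amplicons (63.2%), and in each the difference of prefix 128 minus prefix 204 was lower at 36 °C (permutation of residuals, Benjamini-Hochberg adjusted). At amplicon 7b it was 19.7 points (SE 11.3) at 36 °C and 64.4 points (SE 5.63) at 28 °C. At amplicon 18 it was 14.6 points (SE 8.64) at 36 °C and 48.4 points (SE 6.32) at 28 °C, and at amplicon 3a it was 10.6 points (SE 6.57) at 36 °C and 33.3 points (SE 5.88) at 28 °C. On the unplaced scaffold it was -2.77 points (SE 1.67) at 36 °C and 54.1 points (SE 5.99) at 28 °C. The value at 36 °C there rests on 6 fish of prefix 204, as fish 1 and 17 had no level. The median depth on the scaffold was 35 reads over the 20 fish at 36 °C. Without fish 1 and 17 of the 36 °C testes, 13 of 18 amplicons passed (72.2%), 12 of them lower at 36 °C. Amplicon 5c was the exception, with a difference of -1.90 points at 36 °C and -15.1 points (SE 3.71) at 28 °C (permutation, adjusted p = 0.0118), and it did not pass with all fish (adjusted p = 0.111). At the low amplicons 3b, 5b and 19a, which also passed, the prefixes differed by -0.412, -1.48 and -0.146 points at 36 °C. At 28 °C they differed by 0.0543, 0.102 and 0.0806 points. Without fish 11 of prefix 204 the difference at 5b was -0.287 points at 36 °C, and the effect of temperature was not tested without this fish.

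**Figure D5:**
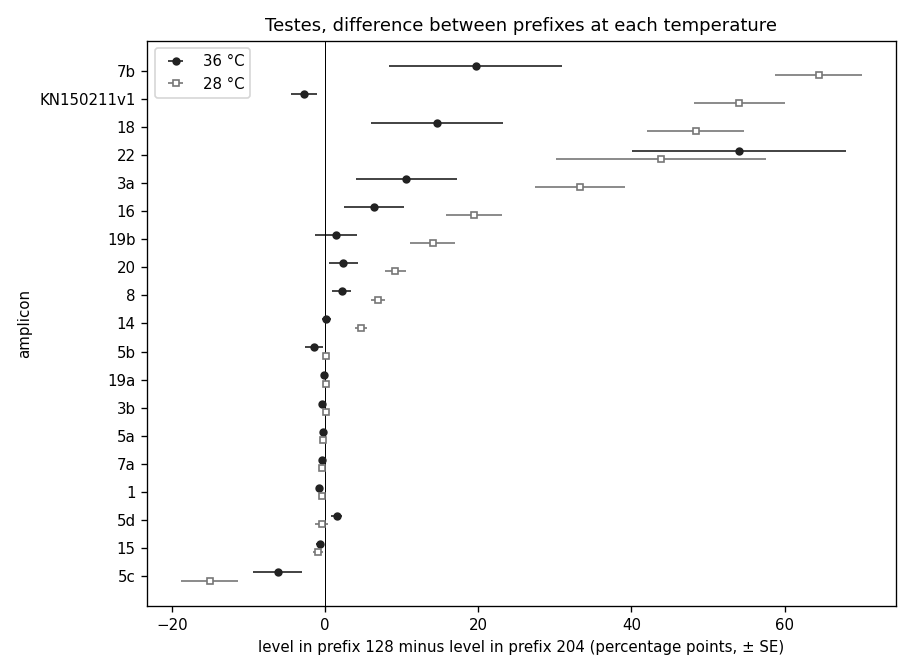
Difference in methylation level, prefix 128 minus prefix 204 in percentage points with its SE, for each amplicon in testes reared at 36 °C (filled circles) and at 28 °C (open squares). At amplicons 7b, 18 and 3a the difference at 36 °C is positive and smaller than at 28 °C, and on the unplaced scaffold it lies near 0 at 36 °C only.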

How the data were processed

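Genomic DNA of gonads was bisulfite-converted, amplified by multiplex PCR and read on a HiSeq machine, as the labels' protocols state. For every fish, whole-number counts of methylated and of unmethylated reads at each CpG were deposited, with no normalization. The submitters' processing notes name the build GRCz10 and the programs Bismark 16.0, Bowtie2, FastQC 0.11.6 and Trim Galore 0.4.5, with no role or order. Removal of duplicates is not given in the sources used here, so deep reads may repeat molecules.

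The level was methylated reads over all reads, with at least 10 reads. CpGs with that depth in 50% of all 73 fish were kept (324 of 25217), and those up to 200 bp apart formed amplicons of at least 2 CpGs. An amplicon's level was the mean of its CpGs where 50% had a level. Groups were compared by exact two-sided permutation over fish (125970 splits for 12 and 8 fish) with at least 5 fish per side, with Benjamini-Hochberg adjustment over all amplicons or all CpGs tested. Temperature was tested with 100000 permutations of residuals. Calculations used Python 3.11.15, numpy 2.4.6, scipy 1.17.1 and, for alternatives, limma 3.58.1 in R 4.3.3, and were tested on simulated data. No pair of libraries (0) held identical counts.

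Amplicons were all named; CpGs were the 5 with the largest difference in level and in spread past the threshold. CpGs set apart from their amplicon by 30 points, CpGs with an SD above 10 points in prefix 128 and the classes below 5% and above 90% were chosen after their values were seen, as were the measure relative to the amplicon, the ranges of the ovaries, and the values without fish 11 or fish 19. Members and tests were chosen with earlier results of these data known. Alternatives were minimums of 5, 30 and 100 reads, other coverage shares, a gap of 500 bp, pooled reads, logit levels, ranks, limma, a quasi-binomial model, other measures of spread, and fish left out.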

Additional observations from a re-analysis of the deposited data

Results flagged for a closer look

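Among 42 sets of 4 to 10 fish examined for a fish far from the rest, 8 had one. Chance gives about 1 in 20 for independent sets that were not chosen by their values. These sets include CpGs named for their difference or spread, and the mean of low CpGs shares CpGs with amplicons 15 and 5b. That rate therefore does not apply here. In prefix 204, fish 11 stood apart at amplicon 5b (10.2%, others 0.380% to 0.987%), 15 (4.42%, others 0.647% to 1.06%), 1 (2.88%, others 0.654% to 1.48%) and 7a (2.0%, others 0.399% to 0.675%), and in the mean of low CpGs (5.04%, others 0.611% to 1.14%). Fish 1 of prefix 204 stood apart at amplicon 8 (87.1%, others 92.6% to 97.3%). Fish 18 of prefix 204 did so at position 27435056 on chromosome 19 (47.8%, others 74.0% to 96.3%), a level also found in 5 fish of prefix 128. Fish 14 of prefix 128 did so at position 20736780 on chromosome 22 (88.0%, others 97.4% to 100%), where depth was low. Prefix 128 held more than 10 fish at most amplicons and was not examined there, so fish 19 is not among these. The rule weighs the gap from 1 extreme fish to the next against the range. Fish 1 and 17 of prefix 204 could therefore hide each other, as at 7b with 17.7% and 19.1%.

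The difference between prefixes depended on temperature at 12 amplicons, by the test of the interaction itself. The value at 36 °C minus that at 28 °C was -56.9 points on the unplaced scaffold, -44.8 at 7b, -33.8 at 18, -22.7 at 3a, -13.1 at 16 and -12.6 at 19b. It was -6.80 points at 20, -4.75 at 8, -4.54 at 14, -1.59 at 5b, -0.466 at 3b and -0.227 at 19a. Adjusted p ranged from 0.00019 to 0.0174 (permutation of residuals). The value at 5b includes fish 11 of prefix 204, which had 10.2% there, and was not tested without it. The value on the scaffold is not like the others, since fish 1 and 17 of prefix 204 had no level there. Without these fish the value was -61.9 points at 7b, -46.8 at 18 and -32.5 at 3a.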

How the results depend on the processing

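Amplicon calls on level numbered 13, and 7 to 14 with any 1 fish left out (8 without fish 1 and 7 without fish 17 of prefix 204). They numbered 5 without both, 3 by limma and by the quasi-binomial model, and 6 over CpGs with a level in all 20 fish, a set added after seeing the data in which fewer amplicons could be tested. CpG calls on level numbered 109 of 310, with 75 to 134 over single fish. They numbered 40 by rank, 33 by the quasi-binomial model, 2 by limma and 55 of the 151 shared CpGs. Fish numbers are shared by 5 fish of each prefix, and the deviations of same-numbered fish correlated at -0.410 to -0.0181. These 5 values cannot show whether a number marks a shared tank, family or preparation, which the labels do not define. With the number as a replicate block, limma gave 0 amplicons and 0 CpGs (4 and 24 at an unadjusted p below 0.05).

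Amplicon calls on spread numbered 3, with 1 to 6 over single fish. They numbered 1 with a minimum of 5, 30 or 100 reads, with CpGs covered in 80% of fish, with pooled reads and on the logit scale, 6 with CpGs covered in 50% of the 20 fish, 14 by distance from the group mean and 0 by the log2 ratio of SDs (2 unadjusted). CpG calls on spread numbered 36, with 0 to 49 over single fish. They numbered 2 without fish 1 and 17 of prefix 204, 0 on the logit scale (47 unadjusted) and 0 by the log2 ratio of SDs (64 unadjusted). They numbered 201 by distance from the group mean and 12 of the 151 shared CpGs. The number called was 0 without fish 11, 13 or 17 of prefix 204, with 75, 116 and 76 at an unadjusted p below 0.05.

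The panel difference of 3.92 points ranged from 2.28 to 4.65 over single fish. It passed without fish 2 (4.53) or fish 11 (4.65) of prefix 204, with a minimum of 5 reads (4.26) and with CpGs covered in 50% of the 20 fish (3.99). It was smaller with 30 reads (2.67), 100 reads (2.66), 80% coverage (2.77) and shared CpGs (2.90). None of these 4 passed (exact permutation p = 0.113 to 0.153). On the logit scale it was -0.00468 log units. The panel spread of -3.75 points ranged from -4.37 to -2.37 over single fish. It did not pass with 5 reads (-3.38), without fish 1 and 17 (-0.593), by the log2 ratio of SDs (-2.70), over shared CpGs (-3.23) or without the CpGs set apart from their amplicon (-3.82). CpGs called relative to their amplicon numbered 53, with 27 to 59 over single fish, 28 with 5 reads and 31 with 30 reads or 80% coverage. They numbered 29 with 100 reads, 22 on the logit scale, 13 without fish 1 and 17 and 3 of the 151 shared CpGs.

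At amplicon 5d the level turned to -0.619 points with 30 or 100 reads, 80% coverage or shared CpGs, -0.628 with pooled reads, -0.196 log units on the logit scale and -0.412 in the quasi-binomial model. Its spread turned to 0.0953 points in the first 4, 0.0924 with pooled reads and 0.0196 on the logit scale. Without fish 1 and 17 the level turned at 14 (-0.520), 19b (-1.99) and 20 (-0.389), and the spread at 14 (0.625), 19b (1.47), 20 (0.331), 3a (0.178) and 5c (0.331). The spread also turned at 5c on the logit scale (0.0952) and at 14 by the log2 ratio (0.0596), and the level at 19b turned with the block (-0.130). With single fish left out, the level ranged from -0.140 to 0.506 at 14 and from -0.0439 to 2.24 at 19b, and the spread from -0.349 to 0.265 at 14 and from -0.433 to 0.0587 at 15. The cause was not tested. Of the amplicons in this paragraph only 5d, 3a, 5c and 15 had passed a test of level.

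Temperature calls numbered 12, 13 without fish 1 and 17, and 10 by limma. Depth limits amplicons 22 and 25, which could not be tested between the prefixes.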
